A study of Mus musculus with 10 samples.

Results

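The p53 target genes followed here are 10 textbook targets of the transcription factor p53, chosen by name: Cdkn1a, Mdm2, Ccng1, Zmat3, Bbc3, Pmaip1, Phlda3, Trp53inp1, Sesn1 and Sesn2. All probe sets annotated to these symbols alone were taken, 20 of the 45101 on the array, and all 10 genes were among the 12580 of 18193 measured genes that passed a filter on dim signal. The study looked for genes regulated by the histone methyltransferase Mll (Kmt2a) in adult haematopoietic stem cells. Bone marrow cells negative for CD48 and for lineage markers and positive for Sca-1 and Kit (LSK/CD48-), a stem cell-enriched fraction, came from 5 Mll-deficient mice (Mx1-cre;Mll F/F) and 5 control mice (Mll F/F, without cre), each on 1 array. The mice, 8-week females of the B6.SJL-Ptprca Pep3b/BoyJ strain, all carried the floxed Mll alleles and all received 3 injections of pI:pC, a synthetic RNA that induces interferon and thereby the Mx1 promoter driving cre, 48 hours apart, with marrow taken on day 6. Each sample was 1500 to 10000 sorted cells. The design therefore cannot separate Mll loss from the presence of cre.

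p53 is kept low in unstressed cells by the ubiquitin ligase Mdm2, is stabilised by DNA damage and other stresses, and binds paired copies of a short consensus to switch on its targets. Those targets arrest the cell cycle, restrain p53 itself, trigger mitochondrial death, or adjust redox state and growth signalling. In blood stem cells p53 is known for maintaining quiescence and for removing damaged cells. The 10 genes were set in 3 roles: arrest and feedback (Cdkn1a, Mdm2, Ccng1, Zmat3), death (Bbc3, Pmaip1, Phlda3, Trp53inp1) and metabolic stress (Sesn1, Sesn2). Trp53 itself was not analysed here.

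The upstream sequences of 3 members that hold the p53 consensus are shown. It is paired in Cdkn1a and Ccng1, which did not pass the test below, and single in Sesn1, which did. Mdm2, whose sequence is not shown, also held a single match and did not pass. RefSeq start sites (GRCm38.p6) gave 250 bases upstream for 11 starts of 7 members, and none were taken for Zmat3, Trp53inp1 and Pmaip1. The p53 consensus decamer is a pattern of 10 bases that is the same on both strands, though a matching sequence need not be. It matched in 4 of these 11 windows (Cdkn1a, Mdm2, Ccng1 and the downstream start of Sesn1) and in 7.13% of all 32851 windows of this length. A paired site, meaning an exact decamer within 13 bases of another with at most 1 mismatch, was found for Cdkn1a and Ccng1 and in 0.898% of all windows. Capitals mark the matching decamers and their partners.
Cdkn1a upstream start, chr17:29090729-29090978, plus strand: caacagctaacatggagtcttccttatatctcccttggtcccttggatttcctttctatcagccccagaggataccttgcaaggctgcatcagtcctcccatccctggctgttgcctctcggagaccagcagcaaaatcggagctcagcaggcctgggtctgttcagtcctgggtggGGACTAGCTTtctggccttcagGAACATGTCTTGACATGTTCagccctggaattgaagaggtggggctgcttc
Ccng1, chr11:40755287-40755536, minus strand: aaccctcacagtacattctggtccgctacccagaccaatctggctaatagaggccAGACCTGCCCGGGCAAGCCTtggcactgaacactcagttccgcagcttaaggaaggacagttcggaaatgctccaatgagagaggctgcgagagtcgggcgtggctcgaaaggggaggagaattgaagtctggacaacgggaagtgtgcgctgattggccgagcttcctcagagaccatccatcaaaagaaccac
Sesn1 downstream start, chr10:41887189-41887438, plus strand: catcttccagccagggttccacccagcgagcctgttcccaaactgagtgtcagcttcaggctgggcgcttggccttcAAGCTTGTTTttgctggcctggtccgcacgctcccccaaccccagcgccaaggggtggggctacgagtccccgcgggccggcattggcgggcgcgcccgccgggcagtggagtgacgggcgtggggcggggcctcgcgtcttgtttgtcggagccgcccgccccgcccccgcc
In Cdkn1a the adjacent pair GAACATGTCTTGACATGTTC, with 0 bases between its decamers, lay at chr17:29090928-29090947, from 51 to 32 bases upstream of the start, and a further exact decamer lay upstream of it. In Ccng1 the pair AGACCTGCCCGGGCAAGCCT lay at chr11:40755462-40755481. The Sesn1 window held a single decamer. The window of the upstream start of Sesn1 held none, nor did that of the downstream start of Cdkn1a. These are matches of letters in a short window and were not measured as binding.

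Signals are MAS5 intensities in arbitrary units, and differences are Mll-deficient minus control on a log2(signal + 16) scale, where the offset understates changes of dim probe sets. All arrays shared 1 trimmed mean signal, their median signal lay between 18.1 and 28.9, and correlations between arrays over tested genes ran from 0.896 to 0.969. The 3' to middle ratio of the Gapdh and Actb control probe sets, a measure of RNA quality, was highest in control replicate 5 (5.19 on the log2 scale, against at most 3.86 elsewhere) and did not separate the groups (2.95 ± 1.41 in controls and 3.14 ± 0.60 in Mll-deficient samples, SD, n = 5 each, exact permutation p = 0.810). The brighter probe set of Kmt2a, whose position relative to the deleted part is not known here, read 260 ± 85.8 and 216 ± 97.2 (SD, n = 5 each; -0.38 ± 0.36, SE, adjusted p = 0.610). Of the gate genes, Kit ranged from 101 to 181 in control and from 27.7 to 94.1 in Mll-deficient arrays (-0.73, adjusted p = 0.132), Cd48 from 44.1 to 197 and from 68.7 to 172 (adjusted p = 0.722), and Ly6a (Sca-1) was not analysed here. Ptprc (CD45), the 1 of 5 tested gate and stem cell surface genes that passed, fell from 3305 ± 353 to 2043 ± 307 (-0.70 ± 0.18, SE, adjusted p = 0.0332). A further Ptprc probe set differed by -0.74 ± 0.26 (SE) and missed the threshold in the limma fit over all probe sets (adjusted p = 0.201). Slamf1 was at -0.66 and Procr at -1.08 without passing (adjusted p = 0.139 and 0.0863), 4 of the 5 had an unadjusted p below 0.05, and the median was -0.70. Of 15 tested erythroid markers 10 were higher in Mll-deficient cells, and their summed signal was 4030 to 8221 in controls and 16988 to 19146 in Mll-deficient samples, with a median difference of 1.49. Of 12 granulocyte and monocyte markers, 7 megakaryocyte markers and 5 stroma and endothelium markers, 0 passed in limma (5, 2 and 0 had an unadjusted p below 0.05), and of 9 lymphoid markers 1 was lower (Il7r, -1.37 ± 0.38, SE, adjusted p = 0.0443, with a second probe set at -0.47 and adjusted p = 0.643). For these counts of an unadjusted p below 0.05, the share of all tested genes was not counted. The part of the erythroid markers in the results below was not tested. In sorted populations such as these, fewer cells of a type and less RNA per cell cannot be told apart.

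Among the 10 p53 targets, Trp53inp1 and Sesn1 fell in Mll-deficient cells, 0 rose and 8 did not pass an adjusted p of 0.05 in limma. Trp53inp1 was 2.17-fold and Sesn1 2.51-fold lower. Of all tested genes, 5.52% passed (694 genes), with 3.76% of all tested genes higher and 1.76% lower. The share of higher genes among the calls was 68.2%, and 81.5% when each array was centred on its median. Phlda3 was the nearest to passing among the other 8, with a difference of 0.75 (adjusted p = 0.0547), and 3 of the 10 members had an unadjusted p below 0.05. The share of all tested genes at that unadjusted cutoff was not counted. Phlda3 itself ranked 744 of 12580 tested genes by p in limma. The other 7 lay between -0.34 (Mdm2) and 0.17 (Cdkn1a). The median over the 10 was -0.16, beside -0.04 over all tested genes. The groups of arrays did not overlap for 2 members, Trp53inp1 and Phlda3, and for 6.96% of all tested genes. The plot of signals by array shows these patterns.

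**Figure D1:**
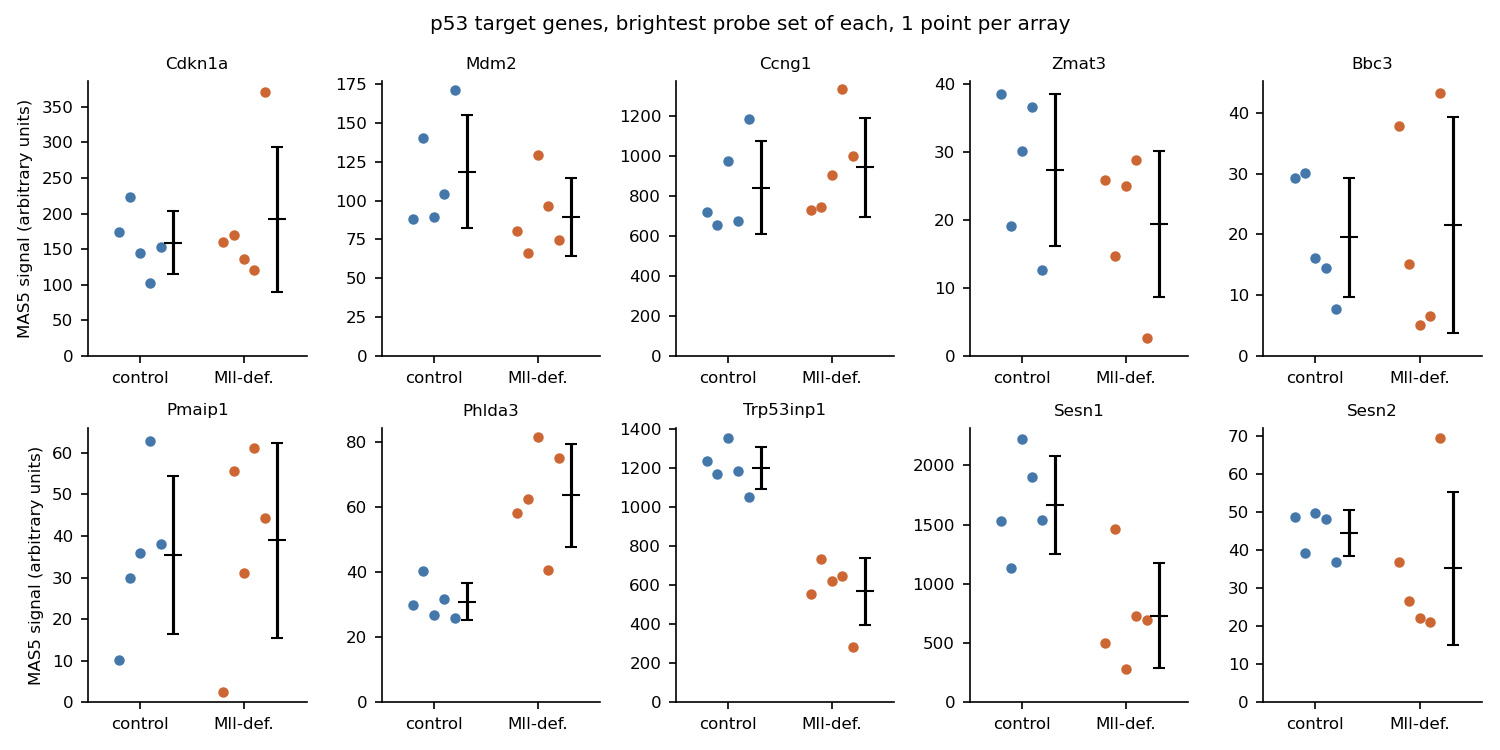
MAS5 signal (arbitrary units, linear axis from 0) of the brightest probe set of each of the 10 p53 target genes, with 1 point per array (blue control, orange Mll-deficient, n = 5 each) and the mean ± SD in black. The groups separate for Trp53inp1 and Phlda3, Sesn1 is lower in 4 of 5 Mll-deficient arrays, and the groups overlap in the other 7 panels.

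The metabolic stress targets are the sestrins, which curb mTORC1 signalling and help to limit oxidative damage. Sesn1, the long-known p53-induced sestrin, read 1532, 1131, 2218, 1903 and 1542 in control replicates 1 to 5. In Mll-deficient replicates 1 to 5 it read 501, 1461, 279, 727 and 698. Of these, 4 lay below every control, while replicate 2 lay within the control range. The means were 1665 ± 413 and 733 ± 445 (SD, n = 5 each), a difference of -1.33 ± 0.33 (SE, 95% interval -2.03 to -0.62, adjusted p = 0.0285). Without control replicates 1, 3 or 4 or Mll-deficient replicates 1, 3 or 5 the difference stayed between -1.36 and -1.04 but missed the threshold (adjusted p from 0.0622 to 0.0774), in fits where 307 to 445 genes passed in place of 694. It also missed it with median centring (-1.27, adjusted p = 0.0524). Without Mll-deficient replicate 2 the difference was -1.62 (adjusted p = 0.00627).

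The 4 probe sets of Sesn1 gave differences from -1.33 to -0.20. The second brightest, 1438931_s_at, read 753, 668, 1091, 822 and 1504 in controls and 390, 513, 201, 708 and 277 in Mll-deficient replicates 1 to 5. Here replicate 4, not replicate 2, reached into the control range, and replicate 3 was again the lowest. Its difference, in the fit over all probe sets, was -1.25 ± 0.30 (SE). The dim 1454699_at ranged from 33.4 to 123 in control and from 7.04 to 62.0 in Mll-deficient arrays, a difference of -1.07 ± 0.34 (SE). The fourth, 1444376_at, read 58.3 ± 14.3 and 49.7 ± 17.1 (SD, n = 5 each), a difference of -0.20 ± 0.26 (SE) with overlapping groups. In that fit over all 45037 probe sets, without a filter, where 1.31% passed, none of the 4 passed (adjusted p = 0.0557 and 0.0531 for the brighter pair, 0.150 and 0.824 for the others). With all 4 averaged, the gene's difference was -0.96 (adjusted p = 0.0185).

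Sesn2, a sestrin that responds to p53 and also to amino acid and endoplasmic reticulum stress, had low signals. Its brighter probe set read 48.7, 39.4, 49.8, 48.1 and 36.9 in controls and 36.9, 26.7, 22.1, 21.2 and 69.4 in Mll-deficient replicates 1 to 5. Replicate 5 was the highest of all 10 arrays, and 3 of the other four lay below every control. The difference was -0.31 ± 0.25 (SE, 95% interval -0.83 to 0.21, adjusted p = 0.522). The other probe set, at 2.14 to 26.5 in controls, lay near the bottom of the scale and differed by -0.19 ± 0.26 (SE). The changes of the sestrins were compared directly within each array. The log2 difference Sesn1 minus Sesn2 was 4.76 ± 0.28 in controls and 3.75 ± 0.94 in Mll-deficient samples (SD, n = 5 each), a change of -1.02 ± 0.44 (SE) that did not pass (two-sided exact permutation p = 0.0714, 0.214 adjusted over 3 pairs, where the smallest possible p is 0.00794). It lay below every control in 4 of 5 Mll-deficient arrays, and leaving out 1 array at a time it passed only without Mll-deficient replicate 2, the array that was not below the controls (-1.36, adjusted p = 0.0238), with adjusted p from 0.190 to 0.381 in the other 9. The offset compresses changes of the dim Sesn2 more than those of Sesn1. The change of Sesn1 minus Sesn2 was -0.89 with an offset of 1 and -1.11 with an offset of 64.

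**Figure D2:**
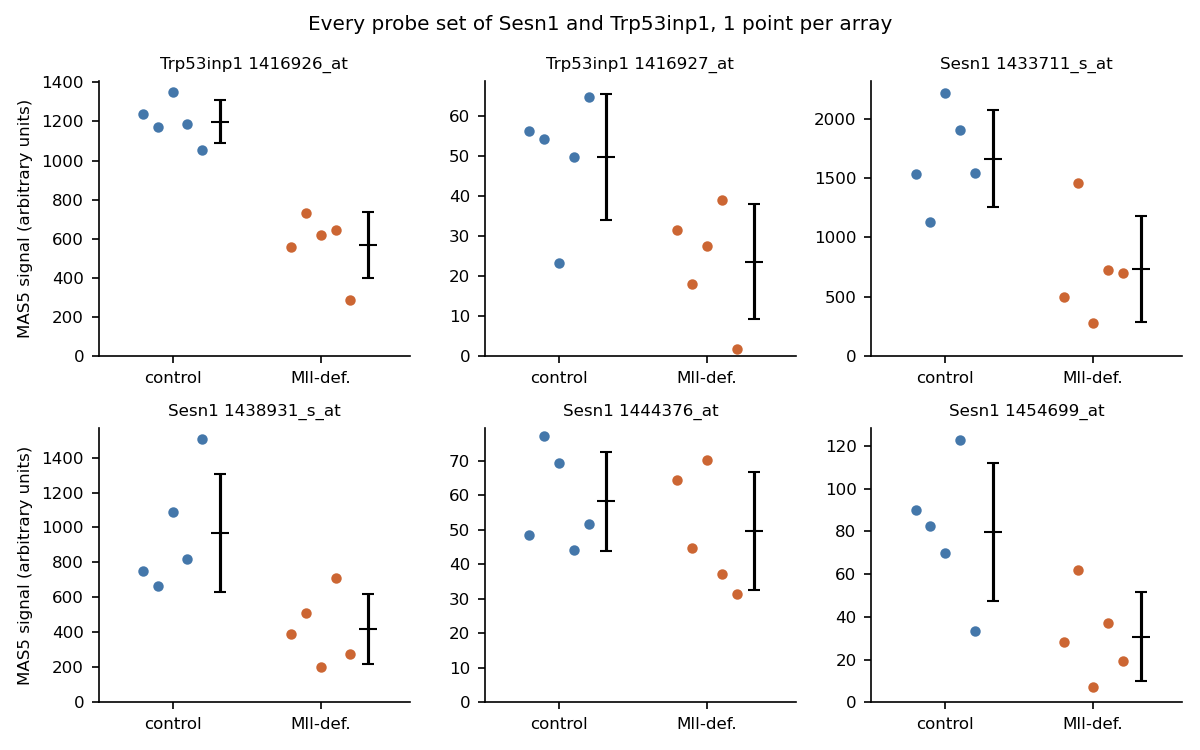
MAS5 signal (arbitrary units, linear axis from 0) of all 4 probe sets of Sesn1 and both of Trp53inp1, with 1 point per array (blue control, orange Mll-deficient, n = 5 each) and the mean ± SD in black. The groups separate for Trp53inp1 1416926_at, while for Sesn1 3 probe sets are lower with overlap and 1444376_at overlaps throughout.

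Of the 4 death targets, 1 fell and 3 did not pass. Trp53inp1, a stress-induced nuclear protein that promotes p53-dependent death and autophagy, read 1236, 1170, 1351, 1186 and 1053 in control replicates 1 to 5. In Mll-deficient replicates 1 to 5 it read 557, 733, 620, 646 and 285. Every Mll-deficient array lay below every control, with replicate 5 the lowest. The means were 1199 ± 108 and 568 ± 170 (SD, n = 5 each), a difference of -1.12 ± 0.24 (SE, 95% interval -1.62 to -0.62, adjusted p = 0.0127). The call held in all 10 fits that left out 1 array (adjusted p at most 0.0373) and in the 12 alternatives that kept all arrays (adjusted p at most 0.0349). Its dim probe set, 1416927_at, read 56.4, 54.4, 23.3, 49.9 and 65.0 in control replicates 1 to 5 and from 1.84 (replicate 5) to 39.2 (replicate 4) in Mll-deficient arrays. Control replicate 3 lay among the Mll-deficient values, and the difference was -0.79 ± 0.32 (SE, adjusted p = 0.294 in the fit over probe sets). Trp53inp1 1416926_at was the only 1 of the 20 probe sets that passed in that fit (adjusted p = 0.0257), while 6 of the 20 had an unadjusted p below 0.05: both of Trp53inp1, 3 of Sesn1 and that of Phlda3. The share of all probe sets at that unadjusted cutoff was not counted in that fit. None of the 20 passed in it with median centring, or without control replicates 1, 3 or 4 or Mll-deficient replicates 1, 3 or 5.

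Phlda3, a pleckstrin homology domain protein that competes with Akt for membrane lipids and so blunts survival signalling, differed the other way. It read 29.7, 40.2, 26.9, 31.7 and 25.9 in control replicates 1 to 5. In Mll-deficient replicates 1 to 5 it read 58.1, 62.5, 81.4, 40.6 and 75.1. All 5 Mll-deficient arrays lay above the highest control, replicate 4 by a narrow margin. The means were 30.9 ± 5.71 and 63.5 ± 15.9 (SD, n = 5 each), a difference of 0.75 ± 0.22 (SE, 95% interval 0.29 to 1.20, adjusted p = 0.0547). It passed in 5 of the 12 alternatives that kept all arrays, with adjusted p from 0.0203 to 0.109 over the 12, and without Mll-deficient replicate 4 (adjusted p = 0.0427). Because the signal is near the offset, the difference ranged from 0.42 with an offset of 64 to 1.0 with an offset of 1.

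The BH3-only proteins Bbc3 (Puma) and Pmaip1 (Noxa), which neutralise antiapoptotic Bcl2 proteins at the mitochondrion, had dim and scattered signals. Bbc3 ranged from 7.76 (replicate 5) to 30.1 (replicate 2) in controls, and read 37.8, 15.2, 5.11, 6.52 and 43.2 in Mll-deficient replicates 1 to 5. The lowest and the highest of the 10 values were both Mll-deficient. Its difference was -0.01 ± 0.31 (SE, 95% interval -0.67 to 0.65, adjusted p = 0.993). Pmaip1 lay between 10.2 and 62.9 in controls and between 2.55 and 61.0 in Mll-deficient samples, a difference of 0.02 ± 0.37 (SE, 95% interval -0.75 to 0.80, adjusted p = 0.978). At such dim signals the offset compresses differences, so these intervals are not comparable with the differences of brighter genes. The log2 difference Bbc3 minus Pmaip1 changed by -0.03 ± 0.71 (SE, exact permutation p = 0.968, 0.968 adjusted over 3 pairs).

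Of the 4 arrest and feedback targets, 0 passed in limma, and 0 had an unadjusted p below 0.05. Cdkn1a, the p21 inhibitor of cyclin-dependent kinases and the carrier of the paired consensus printed above, read 174, 223, 145, 102 and 152 in control replicates 1 to 5. In Mll-deficient replicates 1 to 5 it read 160, 171, 136, 120 and 371. Only replicate 5 lay outside the control range, above it. The difference was 0.17 ± 0.28 (SE, 95% interval -0.43 to 0.77, adjusted p = 0.788), and without Mll-deficient replicate 5 it was -0.08. A dimmer probe set of Cdkn1a read 28.9 ± 23.3 and 38.1 ± 20.7 (SD, n = 5 each) and differed by 0.36 ± 0.36 (SE).

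Ccng1, cyclin G1, which recruits phosphatase 2A to Mdm2 and also carries a paired consensus, lay between 654 and 1184 in controls and between 729 and 1334 in Mll-deficient arrays. The highest control was replicate 5 and the highest Mll-deficient array replicate 4, and the groups overlapped broadly. The difference was 0.16 ± 0.23 (SE, 95% interval -0.32 to 0.65, adjusted p = 0.745), and its other 2 probe sets differed by 0.18 and 0.02.

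Mdm2, the ubiquitin ligase that closes the feedback loop on p53, spanned 88.0 to 171 in controls and 66.3 to 129 in Mll-deficient arrays, of which 3 lay below every control. The difference was -0.34 ± 0.24 (SE, 95% interval -0.85 to 0.16, adjusted p = 0.455). A second probe set, 1423605_a_at, differed by -0.46 ± 0.31 (SE), and the third, the dimmest, by -0.14 ± 0.16 (SE). Zmat3, an RNA-binding zinc finger protein that regulates splicing and RNA stability, spanned 12.7 to 38.5 in controls and 2.57 to 28.8 in Mll-deficient arrays, a difference of -0.32 ± 0.28 (SE, adjusted p = 0.565). The log2 difference Cdkn1a minus Mdm2 changed by 0.51 ± 0.41 (SE, exact permutation p = 0.254, 0.381 adjusted over 3 pairs). The p53 inhibitor Mdm4, a relative of Mdm2, had a difference of -0.19 ± 0.31 (SE, adjusted p = 0.785). Its dimmer probe sets differed the other way, by 0.07, 0.30 and 0.13, and missed the threshold in the fit over all probe sets.

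Set side by side, the arrest and feedback targets had a median difference of -0.08 with 0 of 4 passing, the death targets 0.0084 with 1 of 4 lower, and the metabolic stress targets -0.82 with 1 of 2 lower. The death targets were the most spread, from -1.12 to 0.75. These medians describe few genes, and no difference between roles was tested.

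**Figure D3:**
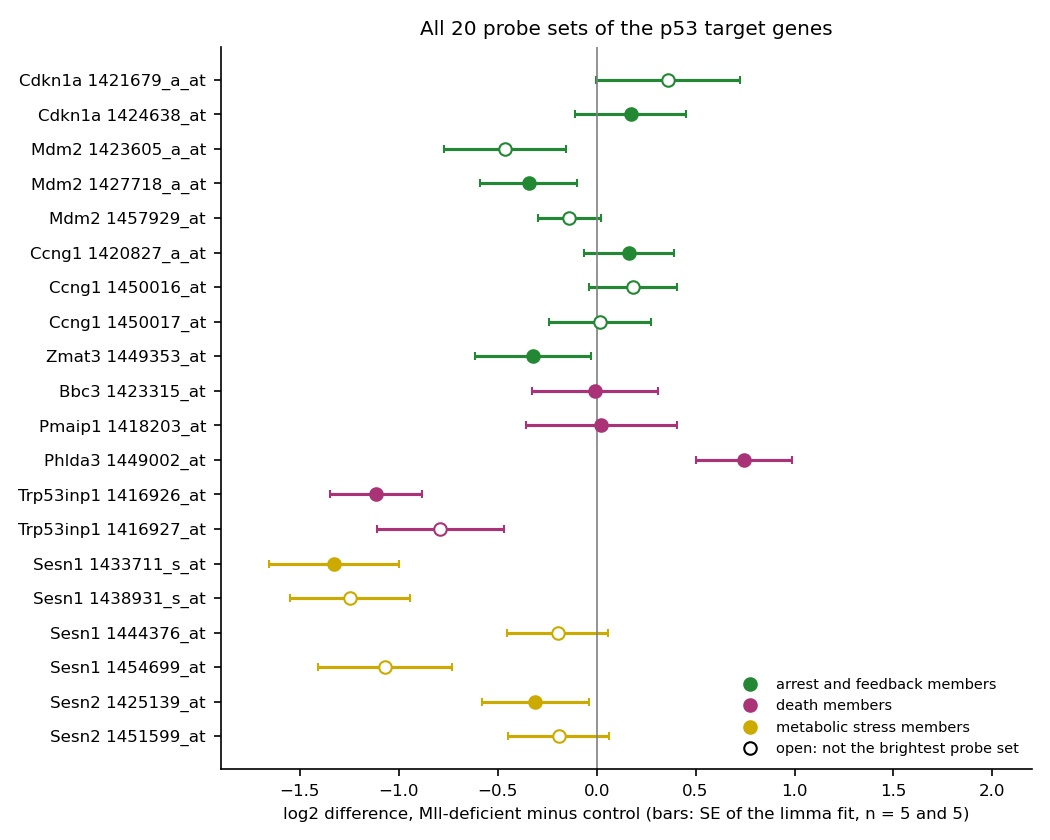
Log2 difference (Mll-deficient minus control) of all 20 probe sets of the p53 target genes, with bars for the SE of the limma fit over all probe sets (n = 5 and 5), coloured by role. Filled points are the brightest probe set of each gene, Sesn1 and Trp53inp1 lie lowest at -1.33 and -1.12, and Phlda3 lies highest at 0.75.

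Wider lists of the pathway were compared in the same limma fit, in which 3.76% of all tested genes were higher and 1.76% lower. Among 21 other arrest and repair targets, 1 fell and 20 did not pass, with a median of -0.22. The gene that fell was Xpc, the damage sensor of nucleotide excision repair, from 1459 ± 262 to 821 ± 166 (-0.82 ± 0.20, SE, adjusted p = 0.0264). Among 17 other death targets, 2 rose and 15 did not pass, with a median of 0.23. Rps27l, a ribosomal protein paralog induced by p53, rose from 258 ± 40.6 to 706 ± 262 (1.33 ± 0.25, SE, adjusted p = 0.00654), and its other probe sets rose by 1.32 and 1.07 (adjusted p = 0.0399 and 0.0307). Steap3, a p53-inducible metalloreductase that also supplies iron to erythroid precursors, rose from 72.1 ± 56.8 to 325 ± 126 (2.19 ± 0.46, SE, adjusted p = 0.0128), while 2 further probe sets (0.24 and 0.37) missed the threshold. Steap3 moved with the erythroid markers given above, and their part in its rise was not tested.

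Among 19 other metabolic and antioxidant targets 0 passed in limma, with a median of -0.09. An unadjusted p below 0.05 was found for 4 of them, a cutoff whose share over all tested genes was not counted. Lpin1, a phosphatidic acid phosphatase, was nearest to passing (0.71 ± 0.25, SE, adjusted p = 0.106). Among 27 genes listed as regulators of p53, 1 rose, 1 fell and 25 did not pass, with a median of 0.17. The 27 include Mrpl23, a mitochondrial ribosomal protein that a shared synonym put in place of Rpl23 (0.27, adjusted p = 0.467 in limma). Usp10, a deubiquitinase that stabilises p53, rose from 387 ± 43.7 to 780 ± 103 (0.98 ± 0.19, SE, adjusted p = 0.00680). Ep300, an acetyltransferase and p53 coactivator, fell from 650 ± 191 to 309 ± 118 (-1.07 ± 0.28, SE, adjusted p = 0.0350).

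Genes of the integrated stress response were included because Sesn2 and several amino acid synthesis genes are also targets of its factor Atf4. Of 20 tested, 2 rose, 1 fell and 17 did not pass, with a median of 0.0049. Asns, asparagine synthetase, rose from 502 ± 113 to 1437 ± 443 (1.45 ± 0.25, SE, adjusted p = 0.00397) and Shmt2, a mitochondrial serine enzyme, from 874 ± 221 to 2131 ± 487 (1.27 ± 0.23, SE, adjusted p = 0.00496). The other probe set of Asns rose by 1.43 (adjusted p = 0.0399), while the other 3 of Shmt2, between 0.45 and 1.04, missed the threshold (adjusted p = 0.0536, 0.199 and 0.455). Vldlr, a lipoprotein receptor, fell from 366 ± 120 to 135 ± 71.5 (-1.40 ± 0.31, SE, adjusted p = 0.0161). Of its other 5 probe sets, 2 fell (-1.51 and -1.21) and 3 missed the threshold (-1.22, -0.79 and -0.17). Over these 5 lists, 5 genes rose and 3 fell, and the plot of gene lists shows them among the many that did not pass. Of all tested genes 5.52% passed, and no list was tested as a set. An unadjusted p below 0.05 in limma was found for 7 of 21 arrest and repair targets and 5 of 17 death targets. It was found for 8 of 27 listed regulators and 8 of 20 integrated stress response genes. The share of all tested genes at that cutoff was not counted. It is at least 744 of 12580, the rank by p of Phlda3 (unadjusted p = 0.00323 in limma). It is below 4741 of 12580, the rank of Mdm2 (unadjusted p = 0.171). These counts are therefore not read as a result about the lists. Summed signals did not overlap for the arrest and repair targets (5834 to 6967 in controls, 4016 to 5161 in Mll-deficient arrays). Nor did they for the listed regulators (22163 to 27626 and 27855 to 32435), while those of the other lists overlapped. Such sums weigh the brightest genes most, and no background of other lists was computed for them. They do not show a shift of a whole list, as 20 of 21 arrest and repair targets and 25 of 27 listed regulators did not pass.

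**Figure D4:**
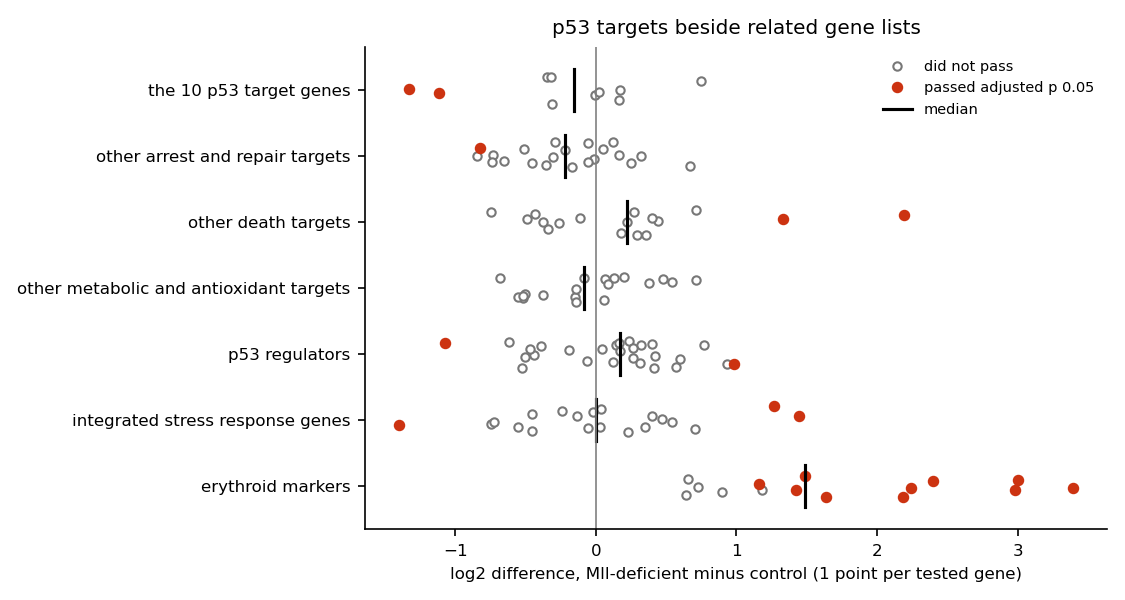
Log2 difference (Mll-deficient minus control) of each tested gene in the 10 p53 targets, 5 related lists and the erythroid markers, with filled red points for genes past an adjusted p of 0.05 and a black line at each median. The medians of the 5 related lists lie between -0.22 and 0.23, while that of the erythroid markers is 1.49.

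The tested genes whose log2 profiles over the 10 arrays, centred on their means, lay closest to those of the members that fell were found by the root mean square difference. Their group differences follow from that choice and are given as a description. For Trp53inp1 they were Cpne3, Gm11346 and Plxnc1, at 0.13, 0.19 and 0.20 on the log2 scale, where the median over all tested genes was 0.76. Cpne3, a calcium-dependent lipid-binding protein, differed by -1.02 ± 0.23 (SE, adjusted p = 0.0191) and Plxnc1, a semaphorin receptor, by -1.08 ± 0.24 (SE, adjusted p = 0.0169). For Sesn1 they were Nabp1, Ncoa2 and Trim30d, at 0.27, 0.27 and 0.29, against a median of 0.96. Nabp1, a single-strand DNA-binding protein, differed by -1.15 ± 0.29 (SE, adjusted p = 0.0317), and Ncoa2, a nuclear receptor coactivator, by -0.98 ± 0.33 (SE, adjusted p = 0.0936).

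**Figure D5:**
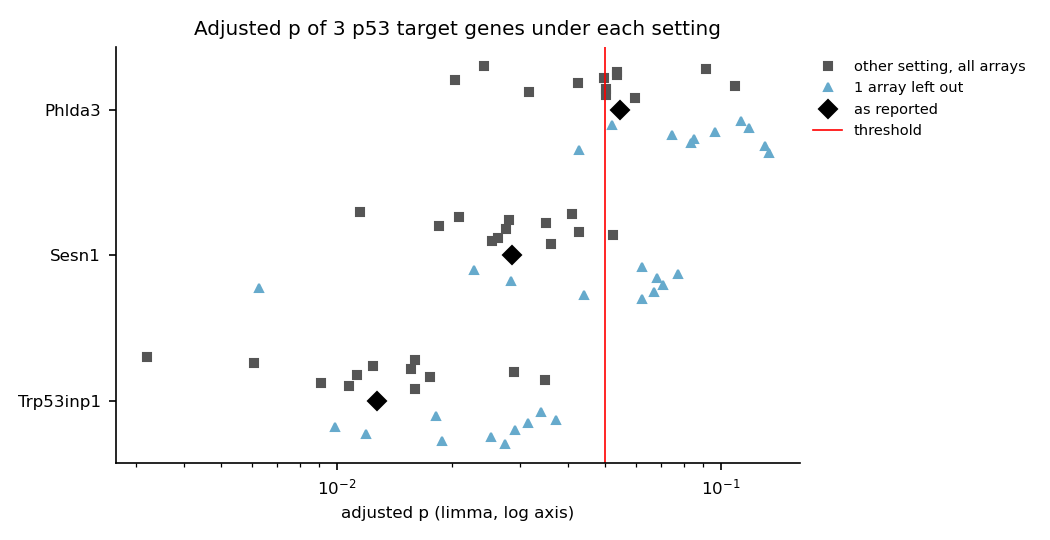
Adjusted p from limma (log axis) for Trp53inp1, Sesn1 and Phlda3 as reported (diamonds), under 12 other settings with all arrays (squares) and with 1 array left out (triangles), with the threshold in red. All points of Trp53inp1 lie below the threshold, those of Sesn1 cross it in 7 fits, and those of Phlda3 lie on both sides.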

How the data were processed

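RNA of 10 sorted cell samples, 1 per mouse and array, was amplified and hybridised to Affymetrix mouse expression arrays. Probe set values were deposited as intensities on a linear scale, the submitters' processing notes naming MAS5 5.0. All arrays had the same trimmed mean, a scaling that removes differences in total RNA per cell. Detection calls and scanner files were not used here. Of 45101 probe sets, 34945 had 1 symbol, 932 several, 9160 none and 64 were controls. Symbols were updated through Entrez identifiers (RefSeq, GRCm38.p6; 34741 found), and probe sets with several symbols named no gene.

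Signals were transformed as log2(signal + 16). A gene was its brightest probe set by mean, and limma tested those over the array's 40th percentile of mean signal (version 3.58.1 in R 4.3.3, lmFit, eBayes with an intensity trend, two-sided, Benjamini-Hochberg over all tested genes, threshold 0.05). A second limma fit took all 45037 probe sets that were not controls. Pairs of members were compared by exact permutation over all 252 assignments. Precision is limited by the number of arrays.

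The members, lists and tests were chosen with earlier results of these data known. Named genes were the members, Kmt2a, Mdm4, up to 4 genes past the threshold from each list or else the nearest, and the 3 genes closest in profile to each member that passed. The named markers of other cell types are given as counts. Alternatives covered the offset, normalization, filter, probe set choice, variance prior, array weights, a replicate block, the 3' to middle ratio as a covariate and leaving out each array. Same-numbered arrays did not deviate together (correlations of deviations between -0.23 and 0.28), so the numbers were not taken as pairs.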

Additional observations from a re-analysis of the deposited data

Results flagged for a closer look

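Of 40 groups of 5 arrays, formed by the 20 probe sets of the p53 targets in each genotype, 2 held an array far from the others, where chance flags about 5% of groups. For Ccng1 1450017_at, Mll-deficient replicate 3 read 34.4 while the other 4 read 49.3 to 53.9, a gap of 0.791 of the group's range on the log2 scale. For Trp53inp1 1416927_at, control replicate 3 read 23.3 while the other 4 controls read 49.9 to 65.0, a gap of 0.715 of the range.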

How the results depend on the processing

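Of the results on the p53 targets, the fall of Trp53inp1 passed under all 22 alternatives, with differences from -1.22 to -0.89. No difference of a member past the threshold changed sign under any alternative. The count of members lower was 2, was 1 with median centring, and ran from 1 to 2 when 1 array was left out. The count of members higher was 0 and became 1 (Phlda3) with quantile normalization, the 60th percentile filter, the mean of all probe sets, no intensity trend and the RNA quality covariate, and ran from 0 to 1 when 1 array was left out. The count of member probe sets called was 1, became 3 with offset 1, the robust variance prior and the RNA quality covariate, and 0 with median centring, and ran from 0 to 3 when 1 array was left out. Over all genes, 694 passed, 1618 with the RNA quality covariate, and from 307 to 873 when 1 array was left out. The change of Sesn1 minus Sesn2 ran from -1.36 to -0.82 when 1 array was left out. The cause of these shifts was not tested. With the replicate block 588 genes passed and the members' calls did not change (Sesn1 adjusted p = 0.0409), and 1 of 5 Mll-deficient arrays correlated best with the control of its own number. The median difference of the members stayed between -0.28 and -0.06. Bbc3, Pmaip1, Zmat3, Sesn2 and Phlda3 had group means between 19.4 and 63.5, beside array medians of 18.1 to 28.9, which limits what their differences can show.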
